A study of Mus musculus with 12 samples.

Results

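The ligands and receptors of the glial cell line-derived neurotrophic factor (GDNF) family were followed in the auditory nerve of CBA/CaJ mice from birth to the third postnatal week. The members are the 7 genes Gdnf, Nrtn, Artn, Ret, Gfra1, Gfra2 and Gfra3, chosen by their place in the family, with no limit set on their values, out of 18193 genes with a probe set of a single gene symbol on the Affymetrix mouse array. A probe set is a group of short probes read together as 1 value, meant to report 1 or more transcripts. Where a gene had several, it was represented by the probe set with the highest mean over all arrays, and the others were used as a check, so the 7 members were read by 14 probe sets. The tissue was the modiolus, the central core of the cochlea with the auditory nerve in it, left after the outer bone, the lateral wall and most of the sensory epithelium had been dissected away. RNA was taken at postnatal day 0 (P0), P3, P7, P10, P14 and P21 from mice of both sexes with no treatment, and the 6 stages had 2 arrays each, 1 mouse per array with its left and right cochleas pooled.

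Ligands of this family do not bind their signalling receptor alone. Each first binds a GFRα co-receptor anchored to the outer face of the membrane, GDNF mainly GFRα1, neurturin mainly GFRα2 and artemin mainly GFRα3, and the pair then brings together molecules of the receptor tyrosine kinase RET. RET signals through adaptors to the ERK, AKT and phospholipase C pathways, which act on survival, growth and migration of many peripheral neurons, and GDNF itself is known to protect auditory neurons in guinea pig and rat.

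All values below are log2 values of the deposited table, and a step of 1 is a doubling. A difference was called where limma's moderated test, fitted over 45037 probe sets, gave a Benjamini-Hochberg adjusted p under 0.05 together with a fold over 1.5. The same limits were set on limma's F-test of any difference among the 6 stages, the fold being that between the highest and the lowest stage mean. The arrays had medians of 6.71 to 6.79. The 2 arrays of a stage had correlations of 0.991 to 0.9962. The P21 arrays differed from the rest in RNA balance: the Actb signal at the 3' end exceeded that at the 5' end by 2.32 and 2.03 at P21, against 0.81 to 1.41 on the other 10 arrays. Of the tissue's own markers, all 10 neuron genes and 7 of 10 Schwann cell genes were matched, and none was among the lowest 25% of signals on all 12 arrays. Markers of bone were also present, with 5 of 5 matched genes called higher at P10 than at P0, as were 4161 of all 45037 probe sets. The bone markers had a summed linear level of 22518 to 26468 at P21, against 714 to 936 at P0. Because tissue was measured whole, fewer cells of a type and less RNA per cell cannot be told apart.

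Over the 6 stages 5 of the 7 members were called, Gdnf, Nrtn, Artn, Ret and Gfra2, while 38.3% of all probe sets were called in the same test. Leaving out both P21 arrays, an alternative added after the data were seen, left the same 5 called. The members did not move together. Ret was higher at P21 than at P0, Gfra2 and Artn were lower at P10 than at P0, Gdnf and Nrtn moved within a narrow range, and Gfra1 and Gfra3 were not called over the stages. Without the first P3 array the count was 3 of 7, with Gdnf and Nrtn lost. With probe sets whose names end in _x_at not used, also an alternative added after the data were seen, it was 4 of 7, with Gfra2 lost.

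**Figure D1:**
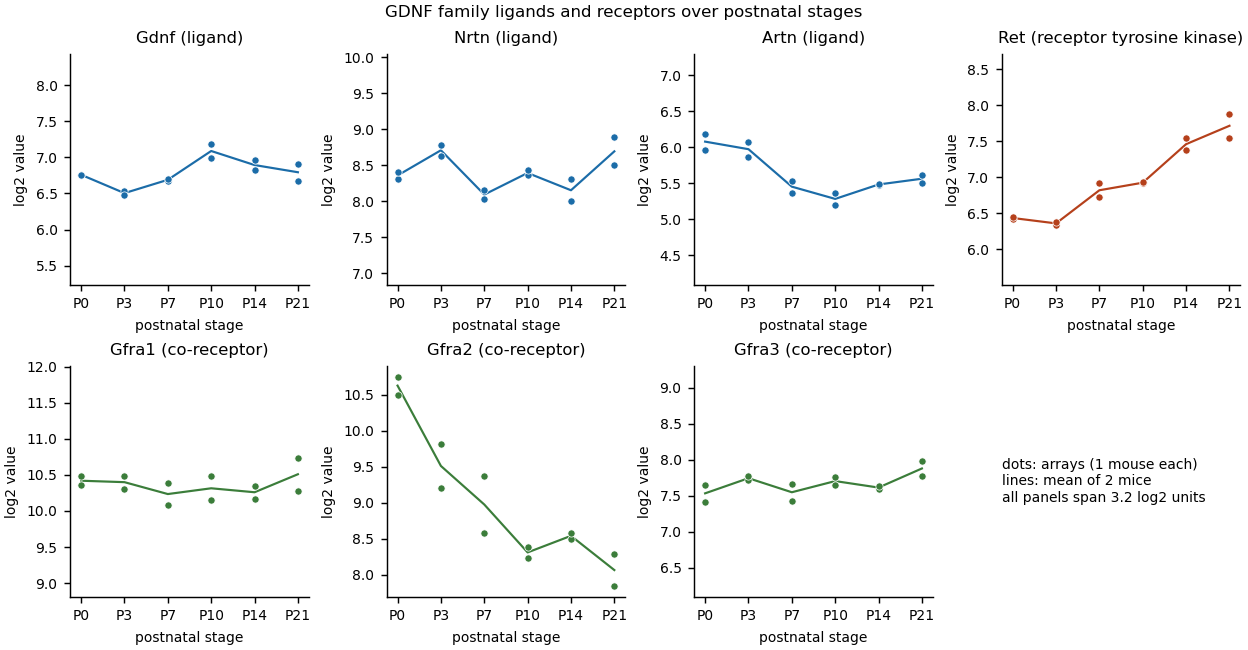
Log2 values of the 7 members at the 6 postnatal stages, with dots for single arrays, each 1 mouse, and lines through the mean of the 2 mice. Every panel spans the same 3.2 log2 units. Ret ends near 7.7 at P21, above every P0 array, and Gfra2 falls over more than 2 log2 units, while Gfra1 and Gfra3 stay nearly level.

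Gdnf encodes the founding ligand of the family. It read 6.76 and 6.76 at P0, 6.53 and 6.48 at P3, 6.68 and 6.70 at P7, 6.99 and 7.19 at P10, 6.83 and 6.96 at P14, and 6.91 and 6.68 at P21. Both P10 arrays were the highest of the 12, and both P3 arrays the lowest. Its stage means spanned 0.59 log2 units, which is the 1.5-fold limit itself (limma, adjusted p = 0.0213). No comparison of 2 stages was called for Gdnf. P10 exceeded P7 by 0.40 (95% confidence interval 0.15 to 0.65, adjusted p = 0.189) and P0 by 0.33 (interval 0.08 to 0.58, adjusted p = 0.0516), and P21 differed from P0 by 0.04 (interval −0.22 to 0.29). The call over the stages was lost without the first P3 array (adjusted p = 0.0536), the second P3 array (0.0678) or the second P10 array (0.0838), and when all arrays were shifted to 1 median (0.0538).

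Nrtn encodes neurturin, the preferred ligand of GFRα2. It read 8.31 and 8.41 at P0, 8.79 and 8.63 at P3, 8.16 and 8.03 at P7, 8.36 and 8.43 at P10, 8.0 and 8.31 at P14, and 8.89 and 8.50 at P21. The stages alternated, with P3 and P21 high and P7 and P14 low, and the P3 arrays did not overlap the P7 arrays. Nrtn was 1.53-fold lower at P7 than at P3, a change of −0.62 ± 0.15 (standard error, limma, adjusted p = 0.0213). It was the only member called between these stages, where 9.98% of all probe sets were called. The later increase of 0.54 ± 0.15 at P21 relative to P14 was not called (interval 0.21 to 0.87, adjusted p = 0.0807). The P7 call was lost without the first P3 array (−0.54, adjusted p = 0.101) or either P7 array (−0.68 and −0.55, adjusted p = 0.0771 and 0.102), and with the Actb balance as a covariate (−0.45, 0.156). Without the second P21 array the P21 difference of 0.74 was called (adjusted p = 0.0375), and the call over the stages was lost without the first P3 array (0.0538) or the second P7 array (0.0587) and with the Actb balance as a covariate (0.0546).

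Artn encodes artemin, the ligand of GFRα3. It read 6.19 and 5.97 at P0, 6.08 and 5.87 at P3, 5.37 and 5.54 at P7, 5.20 and 5.37 at P10, 5.48 and 5.49 at P14, and 5.62 and 5.51 at P21. All 4 arrays of P0 and P3 lay above all 8 arrays from P7 on. Artn was 1.74-fold lower at P10 than at P0 (−0.80 ± 0.12, limma, adjusted p = 0.000966). Most of this difference lay between P3 and P7, where the change of −0.52 ± 0.12 passed the p limit but, at 1.43-fold, not the fold limit (adjusted p = 0.0191). At P21 Artn was 1.43-fold below P0 (−0.52 ± 0.12, adjusted p = 0.0073), again under the fold limit. The signal was dim, between the 26.6th and the 42.7th percentile of its array. The P7 difference was called without the second P3 array (−0.63, adjusted p = 0.0302) or the second P7 array (−0.61, 0.0367), and the P21 difference without the second P0 array (−0.63, 0.0116).

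Ret encodes the kinase that all ligands of the family share. It read 6.42 and 6.45 at P0, 6.34 and 6.38 at P3, 6.92 and 6.72 at P7, 6.92 and 6.93 at P10, 7.54 and 7.38 at P14, and 7.55 and 7.88 at P21. Every array from P7 on lay above the 4 arrays of P0 and P3, and the 4 arrays of P14 and P21 lay above all earlier ones. Only P7 and P10 overlapped among stages that neighbour in level. Ret was 2.43-fold higher at P21 than at P0 (1.28 ± 0.13, interval 1.0 to 1.56, limma, adjusted p = 3.63e-05). The single steps were smaller and none was called: 0.46 ± 0.13 at P7 relative to P3 (1.38-fold, adjusted p = 0.0353), 0.54 ± 0.13 at P14 relative to P10 (1.45-fold, adjusted p = 0.362) and 0.26 ± 0.13 at P21 relative to P14 (adjusted p = 0.276). At P10 Ret stood 1.40-fold above P0, under the fold limit (0.49 ± 0.13, adjusted p = 0.015). With both P21 arrays left out, the stage means still spanned 1.10 (adjusted p = 0.000315).

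The second probe set for Ret did not show this increase. Probe set 1421359_at read 5.69 and 5.84 at P0, 5.97 and 6.01 at P3, 5.80 and 5.95 at P7, 5.91 and 5.94 at P10, 5.76 and 5.86 at P14, and 5.68 and 6.19 at P21. P21 and P0 overlapped, with a difference of 0.17 (interval −0.17 to 0.51, adjusted p = 0.406), an interval that lies below the 1.0 to 1.56 of 1436359_at. The 2 probe sets had a correlation of 0.0775 over the 12 arrays, given as a description. The mean of both gave 0.73 at P21 relative to P0 (adjusted p = 0.00107), and with the Actb balance as a covariate 1436359_at alone gave 2.03 (adjusted p = 0.0461). That balance sets the P21 arrays apart from all the others, so the covariate fit can hardly separate it from the P21 stage.

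Several marker lists moved between the same stages, P0 and P21, where 5563 of all 45037 probe sets were called higher and 6699 lower. Neuron markers were mixed, with 5 of 10 called higher at P21 than at P0, Snap25 and Nefh the most, and 3 called lower, Stmn2, Uchl1 and Syt1. Their summed linear level was 50837 to 68786 at P21, against 23565 to 26589 at P0. Of 9 matched spiral ganglion neuron genes 1 was called higher and 1 lower, with a median change of 0.01. They summed to 16482 to 20615 at P21, against 11876 to 12432 at P0. Schwann cell markers summed to 65398 to 66666 at P21, against 13747 to 16423 at P0, with 6 of 7 called higher. Immature Schwann cell markers went the other way, with 4 of 7 called lower and 1 higher. They summed to 13176 to 14202 at P21, against 23398 to 24425 at P0. The oligodendrocyte and astrocyte lists moved as the Schwann cell list did. Oligodendrocyte markers summed to 11915 to 14993 at P21, against 1845 to 1935 at P0, with 5 of 5 called higher. Astrocyte markers summed to 16495 to 17282 at P21, against 5939 to 7526 at P0, with 3 of 5 called higher. The part of these markers, or of the bone markers given above, in the level of Ret was not tested.

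Among the co-receptors, Gfra1, which encodes the preferred partner of GDNF, stayed nearly level. Its main probe set, 1439015_at, read 10.36 and 10.48 at P0, 10.31 and 10.49 at P3, 10.08 and 10.39 at P7, 10.48 and 10.15 at P10, 10.17 and 10.35 at P14, and 10.74 and 10.28 at P21. The 2 arrays of every stage overlapped those of the next stage in level, and the mean at P21 differed from that at P0 by 0.09 (interval −0.31 to 0.49, limma, adjusted p = 0.724). The test over the 6 stages gave an adjusted p of 0.699.

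One of the other Gfra1 probe sets went down at the last stage. Probe set 1450440_at read 7.02 and 7.12 at P0, 7.11 and 6.91 at P3, 6.96 and 6.95 at P7, 6.89 and 6.75 at P10, 6.87 and 6.70 at P14, and 6.16 and 6.08 at P21. Both P21 arrays lay below the other 10. It was called 1.59-fold lower at P21 than at P14 (−0.67 ± 0.11, limma, adjusted p = 0.0193) and 1.93-fold lower than at P0 (−0.95 ± 0.11, adjusted p = 0.000103). These are the 2 arrays with the different Actb balance, and the part of that balance in the value was not tested. The remaining Gfra1 probe set, 1421973_at, lay between 6.16 and 6.58 on all arrays and was not called (over the stages, adjusted p = 0.212).

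Gfra2, the neurturin co-receptor, showed the widest range of the 7 members. Its main probe set, 1433716_x_at, read 10.75 and 10.50 at P0, 9.20 and 9.82 at P3, 8.58 and 9.37 at P7, 8.23 and 8.39 at P10, 8.50 and 8.58 at P14, and 7.84 and 8.29 at P21. The P0 arrays were the highest of all and did not overlap P3, whereas P3 overlapped P7. The value was 2.17-fold lower at P3 than at P0 (−1.12 ± 0.27, limma, adjusted p = 0.0415), 4.98-fold lower at P10 (−2.32 ± 0.27, adjusted p = 0.00018) and 5.90-fold lower at P21 (−2.56 ± 0.27, adjusted p = 5.23e-05). Gfra2 was the only member called at P3 relative to P0, where 3.78% of all probe sets, 1703 of 45037, were called. Across all probe sets the count was 453 and 562 without either P0 array and 848 without the first P3 array. The early call of Gfra2 was lost without either P0 array (−0.99 and −1.24, adjusted p = 0.251 and 0.119), the first P3 array (−0.81, 0.196), either P10 array (0.0661 each) or either P14 array (0.0599 each), and the P21 call was lost with the Actb balance as a covariate (−3.10, 0.158).

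The decrease of Gfra2 was seen on only 2 of its 5 probe sets. The other one that fell, 1459847_x_at, read 9.0 and 8.82 at P0, 7.82 and 8.23 at P3, 7.35 and 7.96 at P7, 6.96 and 7.21 at P10, 7.37 and 7.42 at P14, and 7.42 and 7.08 at P21. It was 3.54-fold lower at P10 than at P0 (−1.83 ± 0.21, limma, adjusted p = 0.000178) and 3.16-fold lower at P21 (−1.66 ± 0.21, adjusted p = 0.00017). Over the 12 arrays it had a correlation of 0.963 with the main probe set. The ending _x_at marks probe sets whose probes can also match other transcripts, so their signal need not come from Gfra2 alone.

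The 3 Gfra2 probe sets without that ending were not called in any comparison. Probe set 1425579_at read 7.90 and 7.93 at P0, 7.89 and 8.05 at P3, 7.82 and 7.85 at P7, 7.85 and 7.80 at P10, 7.69 and 7.82 at P14, and 7.82 and 7.99 at P21. P21 overlapped P0, with a difference of −0.01 (interval −0.24 to 0.22, limma, adjusted p = 0.951), while the interval of the main probe set ran from −3.16 to −1.96. Probe set 1425578_a_at differed by −0.04 between P21 and P0 (interval −0.30 to 0.22). The third, 1423007_a_at, was 1.33-fold lower at P21 than at P0 (−0.42 ± 0.16, adjusted p = 0.063) and lay among the lowest 25% of signals on 7 of 12 arrays. With the mean of all 5 probe sets Gfra2 was still called at P21 relative to P0, at −0.94 (adjusted p = 0.000239). With probe sets of that ending not used, an alternative added after the data were seen, it was not called in any comparison.

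**Figure D2:**
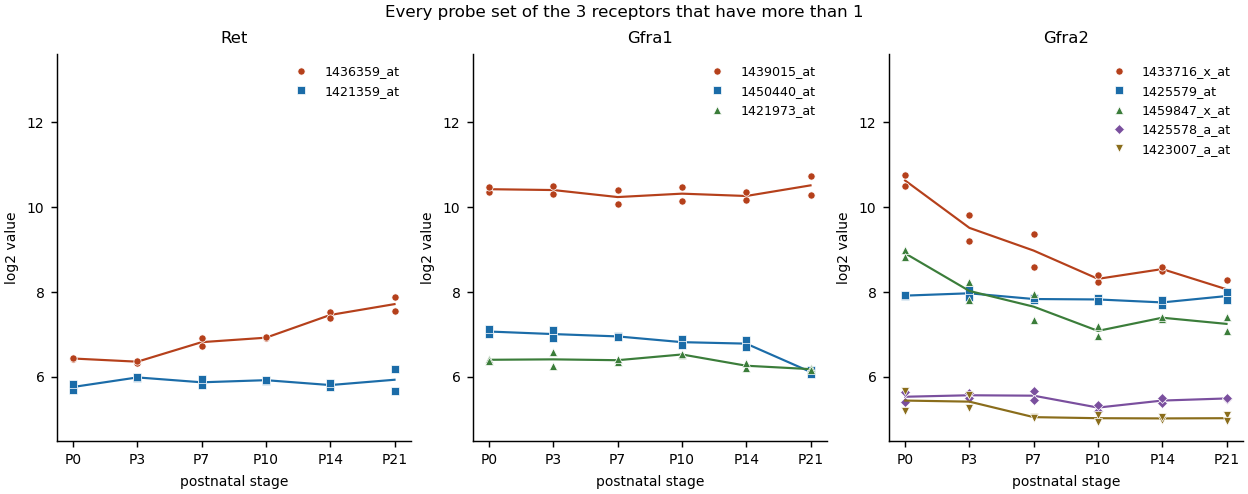
Log2 values of every probe set of Ret, Gfra1 and Gfra2 at the 6 stages, with markers for single arrays and lines through stage means. The 2 Gfra2 probe sets ending in _x_at fall between P0 and P10 while 1425579_at stays between 7.69 and 8.05, and of the 2 Ret probe sets only 1436359_at goes up. The vertical distance between probe sets compares no levels, since each has its own probes.

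Marker lists of several cell types held called decreases over the same interval as the 2 Gfra2 probe sets. Over all 45037 probe sets, 4161 were called higher and 4534 lower at P10 relative to P0. At P21 relative to P0, 5563 were called higher and 6699 lower. Of 6 young neuron genes 4 were called lower at P10 than at P0 and 5 at P21, with summed linear levels of 15739 to 16758 at P10 and 13182 to 14073 at P21, against 32378 to 32540 at P0. Immature Schwann cell markers summed to 12974 to 13761 at P10, against 23398 to 24425 at P0, with 3 of 7 called lower. Of 9 matched spiral ganglion neuron genes 2 were called lower and 1 higher at P10. They summed to 13959 to 15472 at P10, against 11876 to 12432 at P0. Endothelial cell markers summed to 3323 to 3367 at P10, against 3745 to 4185 at P0, with 2 of 6 called lower. The sensory epithelium, most of which was dissected away, had markers that were lower at P10 too. Supporting cell and tectorial membrane markers summed to 6241 to 12876 at P10 and 3406 to 4055 at P21, against 20641 to 23745 at P0, with 2 of 6 called lower at P10 and 3 at P21. Hair cell markers summed to 1617 to 1752 at P10, against 2368 to 2636 at P0, with 2 of 5 called lower, and Atoh1 changed by −3.57. At P21 their sum of 1843 to 2561 overlapped that at P0, with 1 of 5 called higher and 1 lower. The part of any of these cells in the Gfra2 values was not tested.

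Gfra3 encodes the artemin co-receptor, known from mouse sensory and sympathetic neurons. It read 7.42 and 7.65 at P0, 7.72 and 7.77 at P3, 7.43 and 7.67 at P7, 7.65 and 7.76 at P10, 7.59 and 7.64 at P14, and 7.78 and 7.98 at P21. The P21 arrays were the highest of the 12, by a small margin over P3. P21 was 1.27-fold above P0 (0.35 ± 0.12, interval 0.07 to 0.62, limma, adjusted p = 0.0486), under the fold limit, and the test over the stages gave an adjusted p of 0.203.

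Counted by comparison, 1 of 7 members was called at P3 relative to P0 (Gfra2, lower) and 1 at P7 relative to P3 (Nrtn, lower). At P10 relative to P0, 2 of 7 were called, Artn and Gfra2, both lower, while 19.3% of all probe sets were called. At P21 relative to P0, 2 of 7 were called, Ret higher and Gfra2 lower, with 27.2% of all probe sets called, 12262 of 45037. With the Actb balance as a covariate 605 of 45037 were called at P21, Ret among them, in a fit that can hardly separate that balance from the P21 stage. The median change of the 7 members was 0.04 at P10 and 0.09 at P21, against −0.01 and 0.04 over all probe sets tested.

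No member was called between the later neighbouring stages. At P10 relative to P7, 0 of 7 were called by limma, with 0.231% of all probe sets called, and Gdnf and Gfra2 were the 2 members with an unadjusted p under 0.05. At P14 relative to P10, 0 of 7 were called, with 0.0% of all probe sets called, although 3472 of 45037 had an unadjusted p under 0.05, Ret among them. At P21 relative to P14, 0 of 7 were called, with 2.45% of all probe sets called, and Nrtn was the 1 member with an unadjusted p under 0.05. The methods' t-test, unadjusted, also called 0 members in these 3 comparisons, with 416, 370 and 1001 of 45037 probe sets called. With Benjamini-Hochberg adjustment it called 0 probe sets in each.

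**Figure D3:**
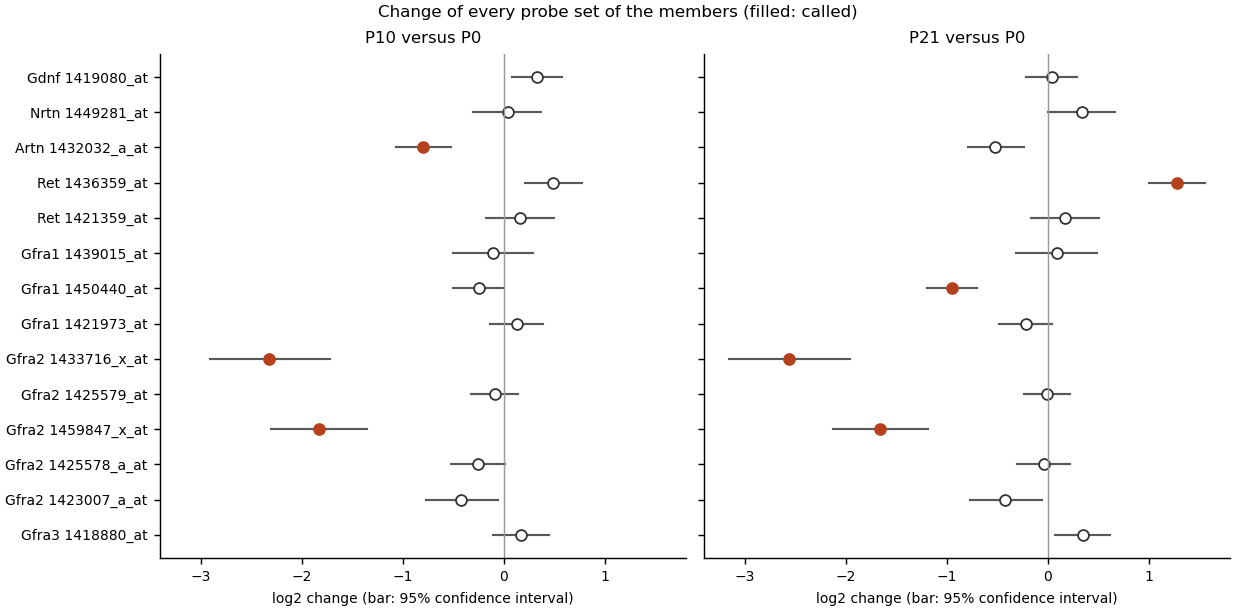
Log2 change of all 14 probe sets of the members at P10 relative to P0 and at P21 relative to P0, with bars for the 95% confidence interval and filled points for called differences. The intervals of the 2 Gfra2 probe sets ending in _x_at lie far below 0 in both comparisons, those of the other Gfra2 probe sets reach or come near 0, and Ret 1436359_at is the 1 filled point above 0 at P21.

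The family has a further ligand and co-receptor, and neither was called. Pspn, which encodes persephin, read between 4.60 and 5.02 and lay among the lowest 25% of signals on 12 of 12 arrays (over the stages, limma, adjusted p = 0.676). Gfra4, its co-receptor, read between 6.16 and 6.60, with a change of 0.21 at P21 relative to P0 (interval −0.12 to 0.53, adjusted p = 0.295). The more distant pair Gfral and Gdf15 was not matched to a probe set with a single symbol and was not analysed here.

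Of the adaptors and effectors that carry the RET signal, 19 of 24 were matched and 9 were called over the stages, a share to be read against the 38.3% of all probe sets. On main probe sets, 5 were called lower and 0 higher at P10 relative to P0. At P21 relative to P0, 3 were called lower and 0 higher. Over all probe sets 19.3% and 27.2% were called in these 2 comparisons. The list's median change was −0.24 at P10 and −0.30 at P21, beside −0.01 and 0.04 over all probe sets. The widest change was in Grb10, an adaptor that binds RET and the insulin receptor. It read 12.43 and 12.51 at P0, 11.98 and 12.12 at P3, 11.26 and 11.70 at P7, 10.56 and 10.76 at P10, 10.34 and 9.99 at P14, and 9.46 and 9.33 at P21. No 2 stages of Grb10 overlapped, and P21 was 8.43-fold below P0 (−3.08 ± 0.16, limma, adjusted p = 1.16e-06), a decrease that was also called on its 2 other probe sets.

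Src, a non-receptor kinase that RET engages, was 2.24-fold lower at P10 than at P0 (−1.17 ± 0.13, limma, adjusted p = 0.000127) and 1.59-fold lower at P21 (−0.67 ± 0.13). Its P10 arrays read 7.35 and 7.46, against 8.67 and 8.47 at P0, so the stages did not overlap. Shc1, which links the receptor to RAS, was called at P21 alone, 2.08-fold below P0 (−1.06 ± 0.16, adjusted p = 0.000582), and its other probe set was not called. Grb7, a relative of Grb10, was called at P10 alone, 1.69-fold below P0 (−0.76 ± 0.17, adjusted p = 0.00812), and its P21 change was −0.21. Akt1, the survival kinase, and Pik3r1, the regulatory subunit of PI3 kinase, were each −0.62 at P10 relative to P0 (1.54-fold and 1.53-fold, adjusted p = 0.000761 and 0.006). Pik3ca was called over the stages (limma, adjusted p = 0.00912). At P21 it was 1.32-fold above P0, under the fold limit (0.41 ± 0.12, limma, adjusted p = 0.0207). Among genes not called at P21 on their main probe set, 4 of 5 others of Pik3ca and 1 of 2 of Akt2 were called higher. In the same set, 1 of 2 others of Gab1 and 1 of 3 each of Akt1 and Pik3r1 were called lower. Dok1, a docking protein, was called over the stages but not at P10 or P21 relative to P0. Grb2, the adaptor that couples receptors to SOS, was not called, with −0.03 ± 0.14 at P21 relative to P0 (adjusted p = 0.883).

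Among the other GDNF receptors and the brakes on RET, 13 of 13 were matched and 7 were called over the stages, beside 38.3% of all probe sets. At P10 relative to P0, 1 was higher and 4 lower, and at P21 relative to P0, 1 was higher and 5 lower. Over all 45037 probe sets, 4161 were higher and 4534 lower at P10, and 5563 higher and 6699 lower at P21. The list's median changes were −0.32 and −0.51, beside −0.01 and 0.04 over all probe sets. Ncam1 encodes a cell adhesion molecule that GDNF with GFRα1 can use without RET. It read 11.68 and 11.45 at P0, 10.48 and 10.72 at P3, 10.55 and 10.94 at P7, 9.73 and 9.76 at P10, 9.95 and 9.81 at P14, and 9.52 and 9.95 at P21. P0 lay above all later arrays, and Ncam1 was 3.56-fold lower at P21 than at P0 (−1.83 ± 0.17, limma, adjusted p = 2.94e-05), although only 1 of its 6 other probe sets was called lower.

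Sorl1 was the 1 gene of this list called higher at P10 or P21 relative to P0 on its main probe set. It encodes the sorting receptor SorLA, which takes up GDNF with GFRα1 and directs RET within the cell. Sorl1 read 10.35 and 10.53 at P0, 10.08 and 10.09 at P3, 11.33 and 11.18 at P7, 12.13 and 11.86 at P10, 12.18 and 12.39 at P14, and 12.74 and 12.36 at P21. All arrays from P7 on lay above those of P0 and P3. Sorl1 was 4.32-fold higher at P21 than at P0 (2.11 ± 0.15, limma, adjusted p = 5.75e-06), and both its other probe sets were called higher as well. Among genes of this list not called on their main probe set, Ptprj had 1 of 3 others called higher at P10 and 1 at P21. In the same set, 2 of 2 others of Cd2ap and 1 of 2 of Cbl were called lower at P21.

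The feedback brakes that fell were Lrig1, Spry1, Spry4 and Dusp6. Lrig1, a membrane protein that restrains RET, was 2.39-fold lower at P10 than at P0 (−1.26 ± 0.11, limma, adjusted p = 2.79e-05) and 1.59-fold lower at P21. Spry1, the Sprouty that limits GDNF signalling in the mouse kidney, was 1.94-fold lower at P10 (−0.96 ± 0.13, adjusted p = 0.000406) and 1.86-fold lower at P21. Spry4 was 2.19-fold lower at P21 (−1.13 ± 0.15, adjusted p = 0.000188), and none of its 3 other probe sets was called there. Dusp6, an ERK phosphatase, was 1.89-fold lower at P21 (−0.92 ± 0.15, adjusted p = 0.000877), with arrays of 11.23 and 10.92 at P21 against 12.02 and 11.96 at P0. Ptprf, a phosphatase that acts on RET, was called at P10 alone, at −0.66 relative to P0.

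Genes that RET is known to control in the mouse ureteric bud, the epithelium that branches to form the kidney's collecting ducts, were matched for 9 of 10, and 6 were called over the stages. At P10 relative to P0, 1 was higher and 2 lower, and at P21 relative to P0, 0 were higher and 5 lower, with median changes of −0.30 and −0.88. Over all 45037 probe sets 38.3% were called over the stages, 4161 were higher and 4534 lower at P10, 5563 were higher and 6699 lower at P21, and the medians were −0.01 and 0.04. Spry1 and Dusp6 belong to this list too. Etv5, an ETS transcription factor downstream of RET, read 10.51 and 10.59 at P0, 9.94 and 10.23 at P3, 9.39 and 9.91 at P7, 9.22 and 9.54 at P10, 9.40 and 9.04 at P14, and 8.53 and 8.34 at P21. Both P0 arrays were the highest and both P21 arrays the lowest, and P21 was 4.33-fold below P0 (−2.12 ± 0.20, limma, adjusted p = 2.46e-05), with both other probe sets also called lower.

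Mmp14, a membrane-bound protease, was 2.14-fold lower at P21 than at P0 (−1.10 ± 0.11, limma, adjusted p = 3.93e-05). Its arrays read 10.62 and 10.53 at P21, against 11.69 and 11.66 at P0. Cxcr4, a chemokine receptor, was 1.83-fold lower at P21 than at P0 (−0.88 ± 0.29, adjusted p = 0.0328), though it was not called over the stages and its 2 P14 arrays lay far apart at 8.46 and 7.25. Myb, a transcription factor of proliferating cells, went the other way at P10, where it was 3.96-fold above P0 (1.99 ± 0.47, adjusted p = 0.00976), with both its other probe sets called higher as well. Its P14 arrays read 10.26 and 8.24, and at P21 the difference of 0.89 from P0 was not called (adjusted p = 0.163). The P21 values of these genes come from the 2 arrays with the different Actb balance, whose part in them was not tested. Akt1, Akt2, Pik3r1, Pik3ca, Gab1, Grb2, Ptprf, Ptprj, Cd2ap, Cbl and Cxcr4 were named after their values had been seen.

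**Figure D4:**
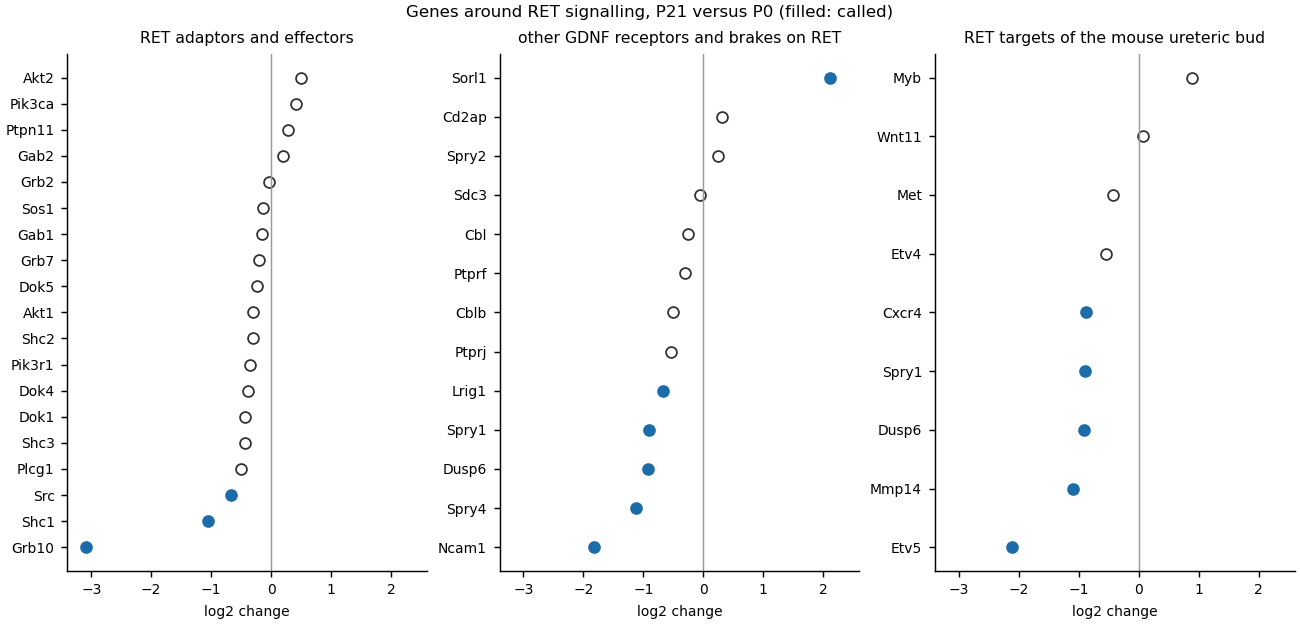
Log2 change at P21 relative to P0 of the matched genes of 3 lists, the adaptors and effectors of RET, the other GDNF receptors and brakes on RET, and the RET targets of the mouse ureteric bud. Filled points mark called differences. Sorl1, at 2.11, is the 1 called gene above 0, Grb10 lies lowest at −3.08, and Spry1 and Dusp6 appear in both of the last lists.

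The genes whose 12 array values were most like those of each called member were looked up among 7796 genes called over the stages, by Pearson correlation and as a description only, since all points come from the same 12 arrays and all candidates change with stage. Closest to Ret were Ncdn (0.9969), which encodes the neuronal protein neurochondrin, Snph (0.9894), which encodes syntaphilin, the anchor of axonal mitochondria, and Pfkm (0.9881), a glycolytic enzyme. Ncdn averaged 9.30 at P0, 9.28 at P3, 9.83 at P7, 9.98 at P10, 10.75 at P14 and 11.11 at P21, so it too was lowest at P3 and highest at P21. Closest to Gfra2 1433716_x_at were Ephb3 (0.984), an ephrin receptor, Mif (0.9792), a cytokine, and Rbms3 (0.9777), an RNA-binding protein. Ephb3 averaged 10.82 at P0, 10.33 at P3, 9.84 at P7, 9.43 at P10, 9.48 at P14 and 9.30 at P21.

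Artn was followed most closely by Zfp772 (0.9808), Tigd3 (0.9676) and Nmral1 (0.9651), which like Artn were lower from P7 on. For Nrtn the closest genes were Echdc3 (0.9076), Plpp2 (0.9016), a phospholipid phosphatase, and Nupr1l (0.8876). Gdnf had the least close neighbours of the 5, Afap1l1 (0.8616), Slco2a1 (0.83), a prostaglandin transporter, and Snhg7 (0.8239), a host gene of small nucleolar RNAs.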

How the data were processed

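Total RNA of the dissected modiolus was labelled with biotin by the Affymetrix 3' IVT Express kit and hybridised to 12 arrays. Per the labels, scans were processed with Affymetrix Expression Console, RMA and MAS5 (versions not given in the sources used here), and the deposited log2 values have the near-equal quartiles of RMA, which corrects background, normalises by quantiles and summarises the probes of a probe set. No further normalisation was applied. The scanner files were not used here, so background correction and summarisation were kept as deposited.

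Of 45101 probe sets, 64 controls were set aside. Of the 45037 tested, 34945 had 1 gene symbol in GEO's platform annotation, 932 several and 9160 none. Stage means were fitted on all 12 arrays with limma (version 3.58.1, R 4.3.3), which left 6 residual degrees of freedom, and 7 comparisons of 2 stages were drawn from the fit. Each array was 1 mouse, so the spread is biological, and 2 arrays per stage limit the precision. The labels give no batch. The fit was tested on simulated data with known changes.

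Named were the 7 members, the other family genes, up to 5 genes per pathway list called over the stages, by the range of their stage means, and the 3 genes most correlated with each called member. Members and lists were chosen with earlier results of these data known. Alternatives were array weights, an intensity trend, a filter on dim probe sets, arrays shifted to 1 median, a gene's probe sets averaged, the Actb balance as a covariate, the replicate block, only the 4 arrays compared, each array left out, and the unpaired t-test of the methods. Replicate numbers came from the labels.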

Additional observations from a re-analysis of the deposited data

How the results depend on the processing

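The calls of Artn at P10 and of Ret at P21, both relative to P0, were kept under every alternative but 1. For Ret, the second probe set, 1421359_at, was not run alone as an alternative, and its P21 difference of 0.17 was not called. The exception was the methods' t-test with Benjamini-Hochberg adjustment (adjusted p = 0.128 and 0.103). It left 0 members called at P7 relative to P3, at P10 and at P21 relative to P0. Over all 45037 probe sets it called 2, 97 and 24 in these comparisons. At P3 relative to P0 the count of 1 was 0 under the methods' t-test, which called 1622 of 45037 probe sets unadjusted and 2 adjusted. It was also 0 with each gene's probe sets averaged, with the Actb balance as a covariate and with only the 4 arrays compared. The same held with _x_at probe sets not used, where the Gfra2 change was 0.06. With the Actb balance the count was 4 over the stages (Nrtn lost), 0 at P7 relative to P3 and 1 at P21 relative to P0, where calls over all probe sets numbered 605, against 12262 without the covariate. The covariate fit can hardly separate the balance from the P21 stage. With _x_at probe sets not used the count of members was 4 over the stages (Gfra2 lost), and 1 at P10 and 1 at P21 relative to P0. Leaving out 1 array at a time gave 3 to 5 members over the stages (3 without the first P3 array), 0 to 1 at P3 relative to P0, 0 to 2 at P7 relative to P3 and 0 to 1 at P21 relative to P14. The labels give the replicate numbers no shared litter, batch or day, and they were not taken to pair the mice: the correlation of replicate differences between stages was −0.125 to 0.317 and exceeded 0.1 in 6 of 15 pairs of stages, so a shared effect of the number is not excluded. With the replicate block 5 members were called over the stages, and no count of members changed. Background correction and summarisation could not be varied, and dim probe sets such as those of Artn and Pspn lie closest to the array's floor.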
